A study of Mus musculus with 8 samples.

Results

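The ascending aorta of mice with mucopolysaccharidosis VII (MPS VII) and a dilated vessel was compared with the same vessel of normal mice, 3 arrays against 3 arrays of the 8 in the study, with 1 array per mouse. The 6 arrays were chosen by their titles, and 2 arrays from MPS VII mice without dilatation were left out of the comparison. MPS VII is a lysosomal storage disease in which beta-glucuronidase, the enzyme encoded by Gusb, is missing. Without it, glycosaminoglycans such as heparan, dermatan and chondroitin sulfate are broken down incompletely and collect in lysosomes. The wall of the ascending aorta is built from layers of smooth muscle between elastic sheets, with an endothelium inside and an adventitia with fibroblasts and fat outside, and in MPS VII it can widen and lose elastin.

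All 6 mice were C57BL/6 and had received no treatment named in the labels, which give the genotype as MPS VII without an allele. The normal mice were a female of 5.8 months, a male of 6.4 months and a female of 7 months (replicates 1 to 3). The mice with dilatation were a female of 7.8 months, a female of 9.1 months and a male of 6 months. The 2 oldest mice were thus in the dilated group, and each group held 1 male, so that any value particular to dilated replicate 3 is also that of the only male with dilatation. Xist was near background and Eif2s3y at 286.8 to 296.7 in both males, and the reverse held in the 4 females. RNA came from the whole vessel, so fewer cells of a type and less RNA per cell cannot be told apart in any value below.

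Values are the deposited array intensities, which have no absolute unit. An intensity above 25.6, the one-sided 0.01 bound of the noise estimated from values below 0, counted as above background. Differences are on the scale of log2(intensity + 50), dilated minus normal, with the standard error (SE) and the Benjamini-Hochberg adjusted p of limma over all genes tested, and a gene was called changed at an adjusted p under 0.05. The offset of 50 understates the change of dim genes. Lists of values always run from replicate 1 to replicate 3.

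Between arrays of the same group, Pearson's r across genes was 0.9713 to 0.9892, and between arrays of different groups it was 0.9207 to 0.9598. Along the axis of largest variation, which held 67.46% of the variance, the normal arrays lay at -28.0 to -24.7 and the dilated arrays at 17.7 to 40.0. On the next axis, which held 12.88%, dilated replicate 3 lay apart from the other dilated arrays. Of 9280 genes, 1977 were called (21.3%), 957 of them higher in dilated aorta (10.3%) and 1020 lower (11.0%). Rises of at least 2-fold numbered 399 (4.30%) and falls of at least 2-fold 208 (2.24%). In 43.7% of genes no dilated array fell within the normal range or the reverse: the 3 dilated arrays lay entirely above the 3 normal arrays for 18.2% of genes and entirely below them for 25.5%. Most genes named below were chosen among called ones, so groups that are apart in them follow largely from that choice. The shares of 10.3% higher and 11.0% lower are the ones to set beside each list count below. With normal replicate 1, 2 or 3 left out, the count of calls was 962, 1306 and 1023 in turn, and with dilated replicate 2 left out it was 1303.

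**Figure D1:**
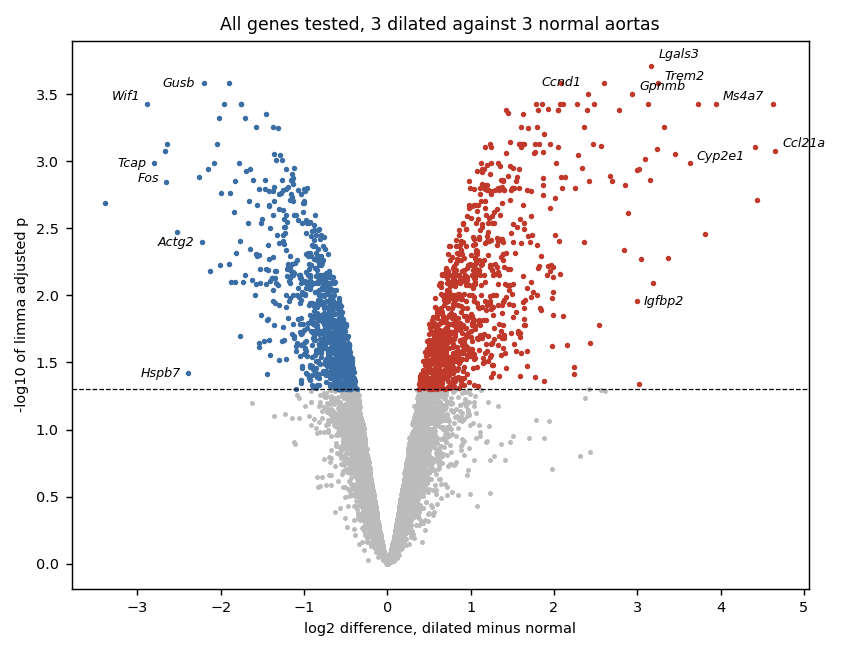
Log2 difference between dilated and normal aorta (horizontal) against -log10 of the limma adjusted p (vertical) for the 9280 genes tested. Red points are the 957 genes called higher, blue points the 1020 called lower, and the dashed line marks the threshold of 0.05.

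Gusb itself separated the groups. Its bright probe measured 1094, 992 and 1172 in the normal aortas and 190.1, 218 and 184 in the dilated ones (log2 difference -2.2, SE 0.12, adjusted p = 0.000261). The dilated arrays were close to each other and far below every normal array, as the labelled genotypes would have it in all 6 mice. A further Gusb probe lay just above background in both groups (log2 difference -0.07), and the remaining probe was above background on 1 normal array only. Of 49 tested genes among the 45 protein-coding genes on each side of Gusb on chromosome 5, 9 were called, a share of 18.4% against 21.3% over all genes (this window was chosen after the values were seen).

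The 12 largest rises among called genes measured on all 6 arrays, with groups that do not overlap, held macrophage genes and genes of other kinds. Ccl8, a chemokine that attracts monocytes, went from 49.3, 129 and 54.1 in normal aorta to 975.4, 1039 and 4577 in dilated aorta (log2 difference 3.82, SE 0.54, adjusted p = 0.00351). Cyp2e1, a cytochrome P450 that oxidises ethanol and other small molecules, went from 1026, 330.4 and 819.5 to 8206, 6884 and 11665 (log2 difference 3.63, SE 0.37, adjusted p = 0.00103). Car3, a carbonic anhydrase of fat and muscle, went from 540.3, 248 and 258 to 2743, 4098 and 6099 (log2 difference 3.45, SE 0.34, adjusted p = 0.000878). In each of the 3 genes the lowest dilated array was several times the highest normal array, and dilated replicate 3 was the highest of all. Lgals3, or galectin 3, a sugar-binding protein of macrophages, had the smallest adjusted p of all genes and went from 879.5, 896 and 1078 to 7677, 10224 and 8998 (log2 difference 3.17, SE 0.15, adjusted p = 0.000194). Wfdc17, an antimicrobial-type secreted protein of myeloid cells, rose by 3.18 (adjusted p = 0.00805), and Cyp2f2, a cytochrome P450 best known from the airway, by 2.85 (adjusted p = 0.0015).

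The 12 largest falls, chosen in the same way, held muscle and stress genes. Wif1, a secreted inhibitor of Wnt ligands, measured 760.2, 876 and 510.1 in normal and 69.6, 40.8 and 46.7 in dilated aorta (log2 difference -2.88, SE 0.20, adjusted p = 0.000371). Tcap, or telethonin, a protein of striated muscle Z-discs, went from 6899, 8039 and 9134 to 1542, 1299 and 656 (log2 difference -2.8, SE 0.28, adjusted p = 0.00103). Kcnab1, a potassium channel beta subunit, went from 4921, 5059 and 4921 to 1464, 1023 and 652 (log2 difference -2.26, SE 0.25, adjusted p = 0.00132). Tcap and Kcnab1 were lowest in dilated replicate 3 and Wif1 in dilated replicate 2. By the way these genes were chosen, no dilated array reached a normal one. Optc, or opticin, a small leucine-rich proteoglycan, fell by 2.67 (adjusted p = 0.000835) and Fbxl22, an F-box protein of muscle sarcomeres, by 2.13 (adjusted p = 0.00657). Hspb7, a small heat shock protein of muscle, was called but scattered, at 2518, 2747 and 2574 against 108, 1450.2 and 498 (log2 difference -2.39, SE 0.67, adjusted p = 0.0382), and its call ended without any 1 normal replicate or dilated replicate 3 (adjusted p up to 0.109) and with an offset of 16, with values floored at 16 in place of the offset, with sex as a covariate, with array quality weights or in the females alone.

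**Figure D2:**
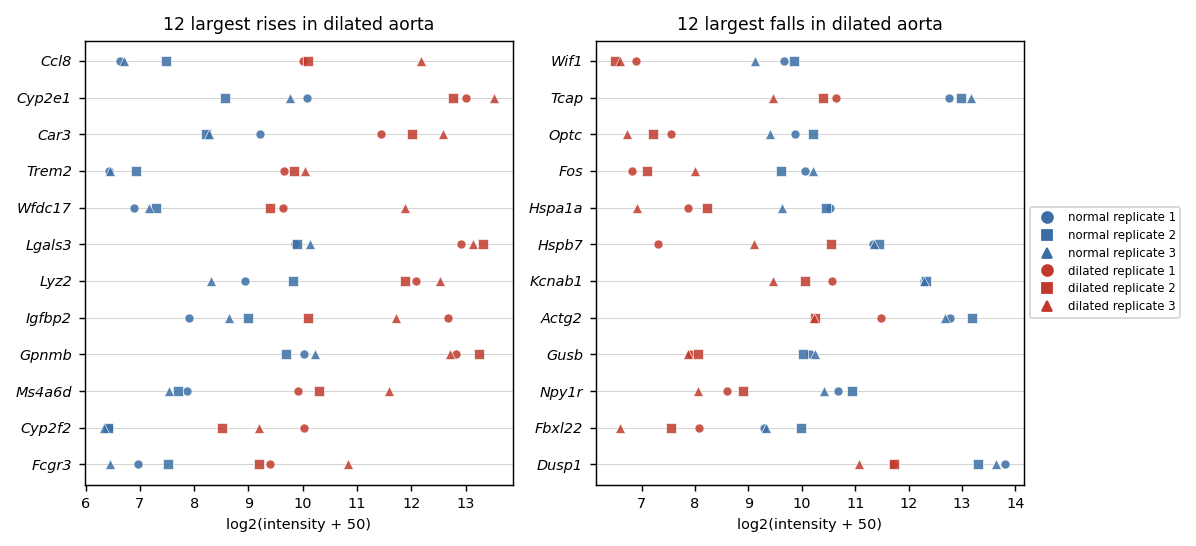
Level in each of the 6 mice, as log2(intensity + 50), of the 12 genes with the largest rise (left) and the 12 with the largest fall (right) among called genes above background on all arrays. Blue marks are the normal mice and red marks the dilated mice, with a shape for each replicate. The genes were chosen among those in which the groups do not overlap.

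Genes of the lysosome, the organelle that lacks an enzyme in this disease, were mostly higher. Of 23 tested lysosomal genes outside glycosaminoglycan breakdown, 15 were higher and 0 lower (65.2% higher, against 10.3% of all genes), with a median log2 difference of 0.55 against -0.06 over all genes. That count was 8 without normal replicate 1 or without dilated replicate 2, 9 without normal replicate 3 and 9 with age as a covariate. Gpnmb, a membrane glycoprotein of lysosomes in phagocytes, went from 994, 782 and 1154 to 7190.1, 9693 and 6649.8 (log2 difference 2.94, SE 0.19, adjusted p = 0.000313). Slc11a1, which moves metal ions out of phagocyte lysosomes, went from 428, 394 and 325 to 1574, 1843 and 2936 (log2 difference 2.28, SE 0.23, adjusted p = 0.000899). Laptm5, a lysosomal membrane protein of blood cells, went from 2081, 2398 and 1988 to 7951, 8861 and 10909 (log2 difference 2.07, SE 0.15, adjusted p = 0.000371). These 3 genes, known from phagocytes, had the largest differences of the list, each over 2 on the log2 scale. The remaining 12 called members differed by less than 1. Among them Man2b1, lysosomal alpha-mannosidase, rose from 1868, 2128 and 1886 to 4014, 3913 and 3870.4 (log2 difference 0.99, SE 0.12, adjusted p = 0.00157). Lamp1, a major protein of the lysosomal membrane in most cells, measured 8392, 8998 and 8542 in normal and 10489, 10489 and 9341 in dilated aorta and did not pass (log2 difference 0.22, SE 0.12, adjusted p = 0.199).

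Enzymes that break down glycosaminoglycans moved both ways, with 3 of 10 higher, 2 lower and a median of 0.08. Hexa, a subunit of beta-hexosaminidase, rose from 1774, 1696 and 1888 to 4009, 4241 and 3151 (log2 difference 1.06, SE 0.14, adjusted p = 0.00287). Neu1, lysosomal sialidase, rose from 825, 770.2 and 793 to 1213, 1204 and 1199 (log2 difference 0.57, SE 0.11, adjusted p = 0.0105). Hyal1, a lysosomal hyaluronidase, fell from 2718, 2727 and 2563 to 973, 724 and 509 (log2 difference -1.83, SE 0.21, adjusted p = 0.00141), and was the member that fell beside Gusb. Of 14 subunits of the V-ATPase, the pump that acidifies the lysosome, 4 were higher and 0 lower (median 0.17), and 2 were higher without normal replicate 1, normal replicate 3, dilated replicate 2 or dilated replicate 3. The clearest were Atp6v1b2, from 637, 573 and 499.5 to 969, 1193 and 1374 (log2 difference 0.98, SE 0.16, adjusted p = 0.00596), and Atp6v0a1, which rose by 0.7 (adjusted p = 0.00638). In the autophagy list 2 of 18 rose and 2 fell, near the share over all genes.

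Cathepsins are the proteases of the lysosome, and several can also cut elastin and collagen outside the cell. Of 14 cathepsins and relatives, 8 were higher and 0 lower (57.1%, median 0.73), and 5 were higher without normal replicate 1. Ctsk, which cuts collagen and elastin, went from 799, 653 and 714 to 2072, 2662 and 1642 (log2 difference 1.47, SE 0.18, adjusted p = 0.00194). Lgmn, or legumain, which matures cathepsins, went from 695, 948 and 516 to 1572, 1818 and 3062 (log2 difference 1.5, SE 0.28, adjusted p = 0.00977). Ctsz went from 489.5, 402 and 515 to 831, 856 and 992 (log2 difference 0.86, SE 0.14, adjusted p = 0.00548), and Cstb, an inhibitor of cathepsins inside the cell, from 6268, 5900.2 and 6311 to 10160, 11076 and 13507 (log2 difference 0.9, SE 0.14, adjusted p = 0.00491). For these 4 genes all dilated arrays were above all normal arrays. Ctsl, another elastin-cutting cathepsin, was below background in every normal aorta and at 83.1, 133 and 92.6 in the 3 dilated aortas, at least 2.00-fold higher (adjusted p = 0.000371).

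Many lysosomal genes carry the letters CACGTG, the core bound by the factors TFEB and MITF, near their start. The motif reads the same on both strands and was searched from 250 bases before to 50 bases after the start in RefSeq promoters (GRCm38.p6). It was present in 7.15% of all 32851 promoters and in 11.7% of the 6737 tested genes with a promoter. Among cathepsins and relatives it was present in 5 of the 10 tested genes with a promoter and in 3 of the 5 that were higher. Among the other lysosomal genes it was in 3 of 22 tested and in 0 of the 14 that were higher, so none of the risen members of that list with a promoter held it. Lamp1, Gaa, Mcoln1, Ctsd and Ctsf held it and were not called. Among tested genes with a promoter it was also in 4 of 10 of the V-ATPase, 2 of 9 of glycosaminoglycan breakdown and 3 of 14 of autophagy. The 250 bases before the start are shown for 2 of the 3 genes of the cathepsin list that rose and hold it. They run 5′ to 3′ in the direction of the gene, with CACGTG in capitals. In Lgmn (chr12:102439093-102439342, minus strand) the motif begins 49 bases before the start and in Ctsl (chr13:64370521-64370770, minus strand) 236 bases before it. A match is a description of letters and not a measured site.
Lgmn: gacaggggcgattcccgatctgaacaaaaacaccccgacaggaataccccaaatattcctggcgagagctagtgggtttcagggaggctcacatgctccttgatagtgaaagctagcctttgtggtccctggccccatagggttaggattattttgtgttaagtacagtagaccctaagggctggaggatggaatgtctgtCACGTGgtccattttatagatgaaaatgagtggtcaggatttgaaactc
Ctsl: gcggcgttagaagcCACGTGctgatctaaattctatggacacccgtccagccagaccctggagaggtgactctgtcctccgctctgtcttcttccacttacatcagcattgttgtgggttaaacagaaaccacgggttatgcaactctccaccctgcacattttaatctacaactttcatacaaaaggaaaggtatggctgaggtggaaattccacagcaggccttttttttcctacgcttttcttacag

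The contractile machinery of smooth muscle was lower in dilated aorta. Of 20 contractile genes tested, 13 were lower and 0 higher (65%, against 11.0% of all genes), with a median log2 difference of -0.99, and the count was 8 without normal replicate 3. Actg2, smooth muscle gamma-actin, went from 6954, 9262 and 6549 to 2821, 1162 and 1155 (log2 difference -2.23, SE 0.33, adjusted p = 0.004). Des, or desmin, the intermediate filament of muscle, went from 1113, 1795 and 1061 to 577, 262 and 299 (log2 difference -1.71, SE 0.29, adjusted p = 0.00706). Cnn1, or calponin, an actin-binding regulator of contraction, went from 114, 169.9 and 147 to 57.3, 30.9 and 22 (log2 difference -1.17, SE 0.18, adjusted p = 0.00508). In all 3 genes dilated replicate 1 was the highest of the dilated arrays, and the groups did not overlap. Myh11, smooth muscle myosin heavy chain, went from 20043, 27268 and 22101 to 15664, 12718 and 7142 (log2 difference -1.02, SE 0.28, adjusted p = 0.0338), and its call ended without any 1 normal replicate or dilated replicate 2 (adjusted p up to 0.0987) and with an offset of 16, with values floored at 16 in place of the offset or in the females alone. Mylk, the kinase that switches smooth muscle myosin on, went from 17788, 20618 and 18573 to 11466, 9892 and 5656 (log2 difference -1.13, SE 0.25, adjusted p = 0.0164), and its call ended without any 1 normal replicate (adjusted p up to 0.0583). Tagln, or transgelin, an actin-bundling protein, went from 5109, 7480 and 5945 to 4116, 3304 and 2703 (log2 difference -0.87, SE 0.20, adjusted p = 0.0191), with the call ending without normal replicate 2 or 3 or dilated replicate 2 (adjusted p up to 0.0605) and in the females alone. Lmod1, which seeds actin filaments in smooth muscle, fell by 1.19 (adjusted p = 0.0147), and its call ended without normal replicate 3 (adjusted p up to 0.0558). Acta2, smooth muscle alpha-actin and the brightest of the list, measured 45221, 56046 and 51237 in normal and 51237, 40636 and 30854 in dilated aorta and did not pass (log2 difference -0.34, SE 0.19, adjusted p = 0.237). The summed intensity of the 20 genes was 205940 to 265550 in normal and 100890 to 183240 in dilated aorta, and it was lowest in dilated replicate 3.

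In a mixed list of smooth muscle regulators, 6 of 17 were lower (35.3%, against 11.0% of all genes), 1 was higher and 10 were not called. The median was -0.49, and the count of 6 was 3 without normal replicate 1 or normal replicate 3. Myocd, or myocardin, the coactivator of serum response factor on contractile genes, went from 6982, 6197 and 6452 to 3065, 2059.6 and 1121 (log2 difference -1.74, SE 0.31, adjusted p = 0.00793). Klf5 went from 134, 127 and 182 to 66.2, 56.4 and 56.5 (log2 difference -0.84, SE 0.14, adjusted p = 0.00645). Srf, serum response factor itself, measured 956, 1125 and 1225 and 994, 757 and 553 with groups that overlapped (log2 difference -0.52, SE 0.21, adjusted p = 0.105), and it passed with age as a covariate (adjusted p = 0.0433) or without dilated replicate 1 (0.0357). Klf2, a factor that responds to blood flow in endothelium, fell by 0.94 (adjusted p = 0.00287). The serum response factor binds the CArG box, which was present in 1.63% of all promoters and in 3 of the 17 tested contractile genes with a promoter (Cnn2, Myl6 and Vcl, none of them called), and in 0 of the 10 contractile genes that fell. Contractile genes are known to hold CArG boxes also in introns and further upstream, outside the window searched.

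Genes of calcium handling and of the response to vasoactive signals were lower in part. Of 13 calcium-handling genes, 6 were lower (46.2%, against 11.0% of all genes) and 0 higher, with a median of -0.44. Of these 13, 2 to 3 were lower when any 1 normal replicate was left out and 3 in the females alone. Atp2a3, a calcium pump of the sarcoplasmic reticulum, went from 3065, 2673 and 2883 to 1445, 1459.6 and 1327 (log2 difference -1.0, SE 0.12, adjusted p = 0.00161). Cacna2d1, an auxiliary subunit of voltage-gated calcium channels, went from 1796, 1516 and 1819.8 to 1015, 749.9 and 498 (log2 difference -1.18, SE 0.23, adjusted p = 0.0111). Among 11 potassium channel genes 2 were lower (18.2%, against 11.0% of all genes). That count was 1 without any 1 normal replicate and 5 with age as a covariate, so it gives no result for the list as a set. Beside Kcnab1, Kcnma1, the large-conductance channel opened by calcium, went from 131, 143 and 194 to 69.2, 74.6 and 16.2 (log2 difference -1.04, SE 0.25, adjusted p = 0.0235), and its call ended without any 1 normal replicate (adjusted p up to 0.0869) and with values floored at 16 in place of the offset. Of 22 genes of vasoactive signalling, 8 were lower (36.4%) and 3 higher (13.6%, against 10.3% of all genes), with a median of -0.13. Without dilated replicate 1, 5 were higher.

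Of the 8 members that fell, 4 act in the response of smooth muscle to nitric oxide through cyclic GMP and were singled out after their values were seen. Other genes of nitric oxide or cyclic GMP in the list, Nos3, Npr1 and Npr2, were tested and not called, and Ddah1, outside the list, rose as given below. Gucy1a1 and Gucy1b1 encode the subunits of soluble guanylate cyclase, the receptor of nitric oxide. Gucy1a1 went from 7286, 9197 and 8609 to 4036, 3976 and 2183 (log2 difference -1.33, SE 0.24, adjusted p = 0.00806) and Gucy1b1 from 559.8, 912 and 571 to 342, 222 and 124 (log2 difference -1.43, SE 0.30, adjusted p = 0.0149). Pde5a, the phosphodiesterase that degrades cyclic GMP, was at 76.4, 54.3 and 80.9 in normal aorta and below background in every dilated aorta, at least 1.59-fold lower (adjusted p = 0.00731). Prkg1, the kinase that cyclic GMP activates, went from 421, 434 and 508 to 321, 248 and 147 (log2 difference -0.85, SE 0.22, adjusted p = 0.031). The call of Prkg1 ended without any 1 normal replicate or dilated replicate 2 (adjusted p up to 0.104). It also ended with values floored at 16 in place of the offset, with the replicate number as a block or in the females alone. In each of the 4 genes the groups were apart, and in the 3 measured on all arrays dilated replicate 3 was the lowest.

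Receptors for vasoactive signals moved in both directions, and Rgs4, a regulator of G protein signalling, fell. Npy1r, a neuropeptide Y receptor that mediates sympathetic constriction, went from 1595, 1911 and 1318 to 339, 429.6 and 217 (log2 difference -2.16, SE 0.23, adjusted p = 0.00115). Rgs4, which shortens signalling by G proteins, went from 2895, 3475 and 2913 to 751, 867 and 575 (log2 difference -2.02, SE 0.17, adjusted p = 0.000478). Ednrb, the type B endothelin receptor, went the other way, from 577, 454 and 785 to 1548, 2168 and 3087 (log2 difference 1.8, SE 0.27, adjusted p = 0.0042). Agtr1a, the main angiotensin II receptor, was below background in every normal aorta and at 134, 89.2 and 96.7 in the 3 dilated aortas, at least 2.06-fold higher (adjusted p = 0.00371). The direction differed between these genes, with all 3 dilated arrays on the same side for each. They were named because they were called, and 43.7% of all genes had groups that do not overlap.

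**Figure D3:**
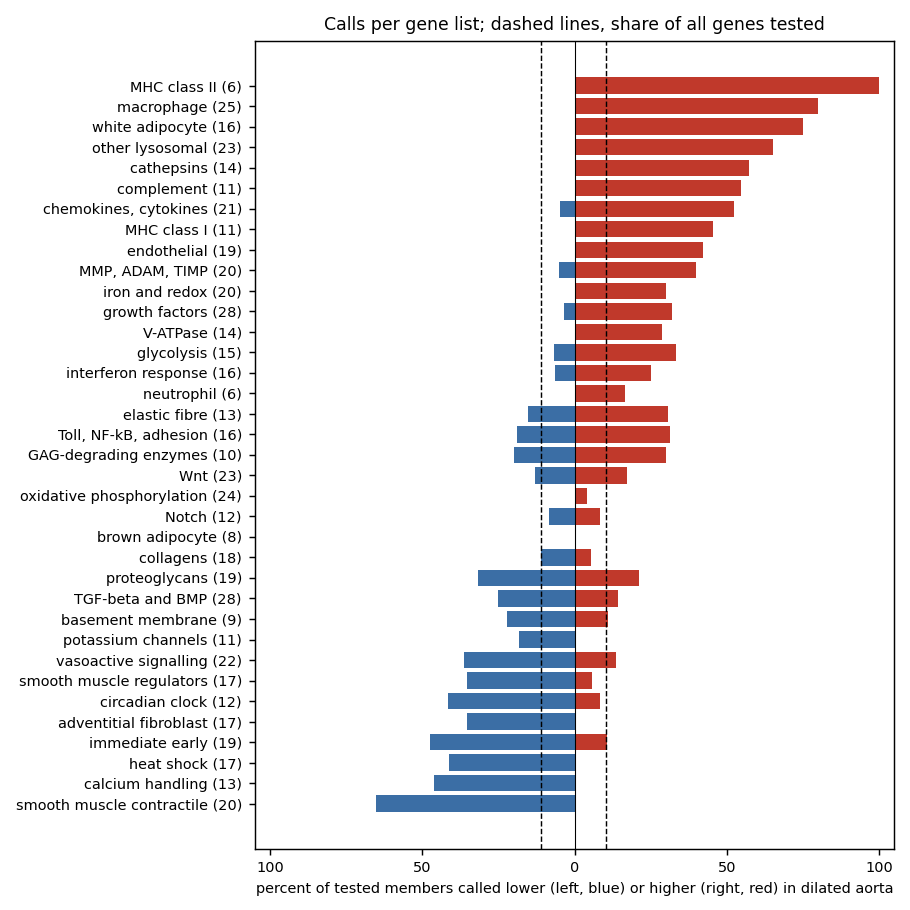
Percent of the tested members of each gene list (number tested in parentheses) that were called higher (red, right) or lower (blue, left) in dilated aorta. The dashed lines mark the same shares over all 9280 genes, 10.3% higher and 11.0% lower.

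Matrix genes moved gene by gene rather than as a group. Of 13 elastic fibre genes, 4 were higher and 2 lower (median -0.04), and 2 were higher without normal replicate 1. Eln, elastin, went from 2750.4, 3341 and 3108 to 11665, 5344 and 5109 (log2 difference 1.15, SE 0.30, adjusted p = 0.0292). Dilated replicate 1 held the highest elastin level, the other dilated arrays were closer to normal, and the call ended without any 1 normal replicate (adjusted p up to 0.0977) and with values floored at 16 in place of the offset or with age as a covariate. Fbln2, or fibulin 2, went from 934, 1013 and 786 to 2823, 2214 and 3879 (log2 difference 1.62, SE 0.21, adjusted p = 0.00213), and Ltbp4, which links latent TGF-beta to elastic fibres and helps assemble them, from 8304, 7822 and 8206 to 3048, 3062 and 2662 (log2 difference -1.46, SE 0.12, adjusted p = 0.000444). Mfap5, a microfibril protein, fell by 1.12 (adjusted p = 0.00675).

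Of 20 metalloproteinases, related proteases and their inhibitors, 8 were higher and 1 lower (40% higher, median 0.30). That count of 8 was 3 without normal replicate 1 or normal replicate 3, and 5 without normal replicate 2 or dilated replicate 2. Mmp3, or stromelysin, went from 617, 1348 and 864 to 3271, 4136 and 3533 (log2 difference 1.96, SE 0.25, adjusted p = 0.00222). Mmp2, a gelatinase that also cuts elastin, went from 3716, 3521 and 3606 to 7569, 9262 and 5925 (log2 difference 1.04, SE 0.17, adjusted p = 0.00598). Both were higher in each dilated mouse than in any normal mouse. Mmp12, macrophage elastase, was below background in every normal aorta and at 52.9, 217 and 47.7 in the 3 dilated aortas, at least 1.84-fold higher (adjusted p = 0.0186), with the call ending without normal replicate 1 or 3 (adjusted p up to 0.0679). Timp4, an inhibitor of these proteases, went from 174, 165 and 138 to 398, 506 and 592 (log2 difference 1.38, SE 0.16, adjusted p = 0.00157), and Adamts1, a protease of the proteoglycans aggrecan and versican, fell from 159, 131 and 125 to 54.3, 76.4 and 55.5 (log2 difference -0.75, SE 0.14, adjusted p = 0.00836).

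Among 18 collagen genes 1 was higher and 2 lower (5.56% and 11.1%, against 10.3% and 11.0% of all genes), and the median was -0.35. The count of 2 lower was 0 to 1 without any array but dilated replicate 1 and 4 with age as a covariate. Col1a1, a chain of type I collagen, rose from 412, 576 and 497 to 1232, 935 and 1586 (log2 difference 1.24, SE 0.20, adjusted p = 0.00613). Its partner chain Col1a2 went from 239, 296 and 318 to 181, 186 and 187 (log2 difference -0.5, SE 0.13, adjusted p = 0.0304). The call of Col1a2 ended without normal replicate 2 or 3 or any 1 dilated replicate (adjusted p up to 0.0886). It also ended with cyclic loess, with all 8 arrays in the fit, with the replicate number as a block or in the females alone. Of 19 proteoglycans 4 rose and 6 fell (median 0.04), and 2 rose without normal replicate 1. Sdc3, or syndecan 3, a heparan sulfate proteoglycan of the cell surface, went from 402, 509 and 484 to 2232, 3008 and 1453 (log2 difference 2.09, SE 0.24, adjusted p = 0.00157). Gpc6, or glypican 6, a further heparan sulfate carrier, went from 643, 621 and 619 to 126, 127 and 143 (log2 difference -1.9, SE 0.11, adjusted p = 0.000261). The normal and the dilated arrays of Gpc6 were each tightly clustered and far apart. Omd and Ogn, small leucine-rich proteoglycans, fell by 1.52 and 1.36 (adjusted p = 0.00641 and 0.0166), the call of Ogn ending without normal replicate 1 or 3 (adjusted p up to 0.0621). Acan, aggrecan, went from 124, 233 and 185 to 57, 42.3 and 43.3 (log2 difference -1.22, SE 0.19, adjusted p = 0.00457), and Cytl1, a secreted protein of cartilage, from 1474, 1279.6 and 1387 to 252, 588 and 183 (log2 difference -2.01, SE 0.33, adjusted p = 0.0059). Npnt, or nephronectin, an integrin ligand of basement membranes, went from 359.8, 427 and 388 to 194, 85.7 and 75.5 (log2 difference -1.45, SE 0.24, adjusted p = 0.00641). Itga1, an integrin chain, fell by 0.87 (adjusted p = 0.00944).

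The Wnt list held large changes of single members, with 4 of 23 higher and 3 lower (median 0.08). These are 17.4% and 13.0%, against 10.3% and 11.0% of all genes. The count of 3 lower was 1 without any 1 normal replicate or dilated replicate 3 and in the females alone, and 5 with age as a covariate. Besides the fall of the inhibitor Wif1, another secreted Wnt antagonist, Sfrp1, rose from 343, 353 and 359 to 2197, 2067 and 1481 (log2 difference 2.27, SE 0.16, adjusted p = 0.000371). Ccn4, a matricellular protein induced by Wnt signalling, went from 131, 130 and 201 to 821, 703 and 827 (log2 difference 2.05, SE 0.16, adjusted p = 0.000413). Ccn5, its relative, went from 839, 1602 and 1018 to 5801, 3164 and 5424 (log2 difference 2.01, SE 0.29, adjusted p = 0.00354). The antagonists thus moved in opposite directions in the same 3 mice. Ccnd1, cyclin D1, which drives entry into the cell cycle, went from 686, 852 and 749 to 4720.2, 3507 and 4643 (log2 difference 2.41, SE 0.16, adjusted p = 0.000313). Of 12 proliferation genes 2 were higher (16.7%) and 1 lower.

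Of 28 genes of TGF-beta and BMP signalling, 4 were higher and 7 lower (median -0.25). These are 14.3% and 25%, against 10.3% and 11.0% of all genes. The count of 7 was 3 to 4 without any 1 normal replicate or dilated replicate 1, 4 with cyclic loess and 2 in the females alone. The count of 4 higher was 2 without normal replicate 1 or normal replicate 3 and 2 in the females alone. Id1, a direct target of BMP signalling, went from 3236, 3487 and 2904 to 1210.4, 1086 and 1350.3 (log2 difference -1.37, SE 0.13, adjusted p = 0.000884). Ccn1, a matricellular protein that responds to stretch, went from 1080.4, 1091 and 1001 to 340.4, 559.6 and 282 (log2 difference -1.37, SE 0.21, adjusted p = 0.00518). Fst, or follistatin, which binds activins and BMPs, rose from 159, 169 and 121 to 621, 369 and 338 (log2 difference 1.27, SE 0.22, adjusted p = 0.00706). Tgfb1 went from 161, 136 and 149 to 233, 369 and 268 (log2 difference 0.76, SE 0.16, adjusted p = 0.0162), and its call ended without normal replicate 2 or 3 (adjusted p up to 0.0554) and in the females alone. In each of these 4 genes the groups did not overlap. In the Notch list 1 of 12 rose and 1 fell (8.33% each), near the shares over all genes.

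Of 28 growth factor genes 9 were higher, 1 was lower and 18 were not called (32.1% higher, against 10.3% of all genes, median 0.30). Without normal replicate 1, 5 were higher. Igf1 went from 419, 363 and 513 to 1046, 1263 and 1225 (log2 difference 1.36, SE 0.15, adjusted p = 0.00139). Igf2, the related growth factor of fetal life, went from 975.1, 1008 and 798 to 452, 257 and 349 (log2 difference -1.3, SE 0.19, adjusted p = 0.00407). The insulin-like growth factors thus moved in opposite directions in the same mice. Igfbp2, which binds both, went from 191, 457 and 347 to 6514, 1049 and 3322 (log2 difference 2.99, SE 0.58, adjusted p = 0.0111), with the 3 dilated arrays spread over a wide range. Igfbp3, another binding protein, was at 17.9, 38.8 and 53.3, with normal replicate 1 below background, and at 193, 659.5 and 173 in dilated aorta (adjusted p = 0.0141), its call ending without normal replicate 1 (adjusted p up to 0.0563). Pdgfb, a growth factor for smooth muscle and pericytes, went from 208, 202 and 297 to 665, 1333 and 759.7 (log2 difference 1.71, SE 0.25, adjusted p = 0.00403), and Vegfb from 1321, 1209.5 and 1125 to 2386, 2559.5 and 2712 (log2 difference 1.04, SE 0.12, adjusted p = 0.00161).

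Macrophage markers showed the highest share of changed members of any list above 10 genes. Of 32 markers, 28 had a named probe, 25 passed the filter, and 20 of these were higher and 0 lower (80%, median 1.95), a count that stayed at 18 to 20 when any 1 array was left out. Their summed intensity was 9355 to 14814 in normal and 52407 to 69302 in dilated aorta. Trem2, which senses lipids on macrophages, went from 36, 72 and 37.7 to 758, 866 and 1006 (log2 difference 3.24, SE 0.18, adjusted p = 0.000261). Adgre1, which encodes the F4/80 antigen, went from 52.7, 77 and 33.7 to 364, 271 and 345 (log2 difference 1.86, SE 0.18, adjusted p = 0.000852). Mrc1, the mannose receptor of resident macrophages, went from 412, 607 and 364 to 1419, 1132 and 3001 (log2 difference 1.8, SE 0.34, adjusted p = 0.0099). All 3 receptors separated the groups. Cd68 and Csf1r had no named probe, and Itgam, Cybb and Ccr2 were below the filter. Ms4a7, a membrane protein of macrophages, was at 2.39, 48.3 and 4.66 in normal aorta, where replicates 1 and 3 were below background, and at 1026, 1252 and 678 in dilated aorta (adjusted p = 0.000371). Receptors for the constant part of IgG were among the members that rose, with Fcgr2b, the inhibitory receptor, going from 91.8, 91.1 and 62.7 to 589, 609 and 1408 (log2 difference 2.7, SE 0.30, adjusted p = 0.0014) and Fcgr3, an activating receptor, from 75.2, 132 and 37.1 to 628, 539 and 1768 (log2 difference 2.84, SE 0.43, adjusted p = 0.00457). Fcer1g, the signalling chain of the activating receptors, went from 455, 566 and 389 to 3074, 3401 and 2809.7 (log2 difference 2.61, SE 0.16, adjusted p = 0.000261). Fcgr2b and Fcgr3 were at similar levels in dilated replicates 1 and 2 and highest in replicate 3, while Fcer1g varied little among the dilated mice.

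Complement genes, which tag debris for uptake by phagocytes, were higher in 6 of 11 cases and lower in 0 (54.5%, median 0.91). The 3 chains of C1q moved together. C1qa measured 167, 209 and 137 and 767, 677 and 1141, C1qb 688, 932 and 481 and 3018, 3471 and 5396, and C1qc 297, 493 and 258 and 1951, 1988 and 2889 in normal and dilated aorta. In all 3 chains the normal arrays kept the same order, highest in replicate 2 and lowest in replicate 3, and the dilated arrays were highest in replicate 3. Their log2 differences were 2.02, 2.42 and 2.56 (adjusted p = 0.00104, 0.00141 and 0.000772).

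Of 21 chemokines and cytokines, 11 were higher and 1 lower (52.4% higher, median 1.47). Ccl21a, which draws lymphocytes and dendritic cells along lymphatic vessels, was at -0.801, 131 and 43.4 in normal aorta and 3015, 2747 and 1505 in dilated aorta (adjusted p = 0.000835). Its near-identical copies Ccl21b and Ccl21c were also called higher, and which of the 3 genes each probe measured is uncertain. Cx3cl1, or fractalkine, an adhesive chemokine of endothelium, went from 104, 91.7 and 185 to 331, 642 and 366 (log2 difference 1.47, SE 0.27, adjusted p = 0.00843). Cxcl16, a chemokine that is also a scavenger receptor, went from 254, 218 and 305 to 769, 733 and 824 (log2 difference 1.43, SE 0.14, adjusted p = 0.000869). Cxcl12, which retains blood-forming cells and guides leukocytes, went from 527, 394 and 773 to 989, 4266 and 4129 (log2 difference 2.16, SE 0.52, adjusted p = 0.0233). The level of Cxcl12 in dilated replicate 1 was close to the normal range, and its call ended without any 1 normal replicate or dilated replicate 2 or 3 (adjusted p up to 0.0747) and in the females alone.

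Genes that present antigen were higher. All 6 tested MHC class II genes rose (median 1.26), and 4 did so without normal replicate 3. H2-Ab1, a chain of the class II molecule, went from 686, 874 and 466 to 1760.1, 1580.5 and 2508 (log2 difference 1.48, SE 0.24, adjusted p = 0.00634), and H2-Aa from 106, 101 and 87.4 to 227, 216 and 269.9 (log2 difference 0.96, SE 0.13, adjusted p = 0.00256). Of 11 genes of the class I route 5 rose and 0 fell (median 0.39), with 3 rising without normal replicate 1, normal replicate 3 or dilated replicate 2. H2-T23 went from 883, 969 and 751 to 1564, 1479 and 1564 (log2 difference 0.8, SE 0.13, adjusted p = 0.00602). Of 16 interferon response genes 4 rose and 1 fell (median 0.26), and 1 to 2 rose without any 1 normal replicate. Ifit3 went from 648, 516 and 618 to 1405, 1519 and 1474 (log2 difference 1.24, SE 0.13, adjusted p = 0.00103).

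In the list of Toll-like receptors, NF-kappa-B and adhesion molecules, 5 of 16 rose and 3 fell (median 0.22), and 1 fell without normal replicate 1 or normal replicate 3. Icam1 and Vcam1, which hold leukocytes on the endothelium, went from 259, 173 and 237 to 844, 849 and 991 and from 1110.5, 1018 and 1363 to 3427, 6217 and 3820.2, log2 differences of 1.8 and 1.86 (adjusted p = 0.000556 and 0.00179). Nfkbia, the inhibitor and target of NF-kappa-B, fell from 1095, 1244 and 1009 to 599.6, 708 and 662 (log2 difference -0.72, SE 0.13, adjusted p = 0.00834), a call that ended with all 8 arrays in the fit.

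Markers of other white cells were in part below the filter. Of 19 T and NK cell markers 10 were tested, with 2 higher (20%, against 10.3% of all genes), and the summed intensity was 1737 to 2398 in normal and 1364 to 3054 in dilated aorta. The markers that rose were Ccl5 and Il7r. The call of Il7r ended without normal replicate 1 or 2 or dilated replicate 2 (adjusted p up to 0.11). It also ended with values floored at 16 in place of the offset, with age as a covariate, with the replicate number as a block or in the females alone. Cd4, Cd8a and the granzymes Gzma and Gzmb were below the filter, and Cd3d, Cd3e and Cd3g did not pass. Of 9 mast cell markers 6 were tested and 0 called. Of 15 neutrophil markers 6 were tested and 1 rose (16.7%), or 4 with age as a covariate, with a summed intensity of 130 to 367 in normal and 520.3 to 7839.9 in dilated aorta, while Mpo, Camp, Ngp, Ltf and Cxcr2 were below the filter. The member that rose was Lcn2, at -1.88, 74.6 and 6.76 and 423, 101 and 2496 (adjusted p = 0.0454). The call of Lcn2 ended without any 1 normal replicate or dilated replicate 1 (adjusted p up to 0.135). It also ended with an offset of 100, with values floored at 16 in place of the offset or with the replicate number as a block. S100a8 was at 131, 48.6 and 6.01 in normal and 74.8, 230.2 and 3459 in dilated aorta, far above the normal range in dilated replicate 3, less far above it in replicate 2 and within it in replicate 1 (log2 difference 2.31, SE 1.08, adjusted p = 0.158), and it passed with age as a covariate (adjusted p = 0.0135). The part of these cells in the results was not tested.

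**Figure D4:**
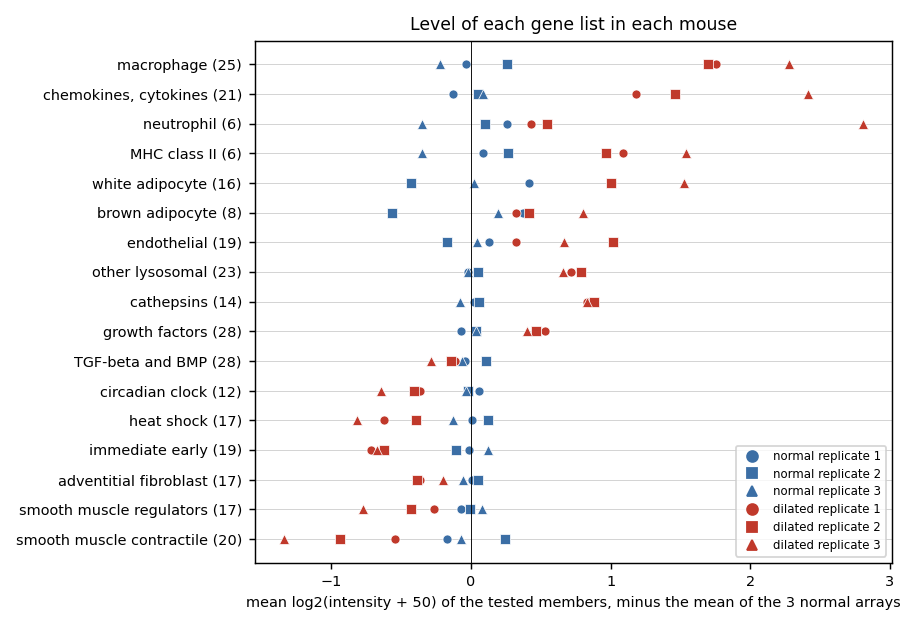
Mean log2(intensity + 50) of the tested members of 17 gene lists in each mouse, as the difference from the mean of the 3 normal mice. Macrophage and lysosomal levels separate red (dilated) from blue (normal) marks, brown adipocyte levels overlap, and dilated replicate 3 (red triangle) lies furthest from the normal mice in the neutrophil, chemokine and contractile lists.

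Markers of fat around the vessel were also higher in dilated aorta. Of 21 white adipocyte markers 16 were tested, with 12 higher and 0 lower (75%, median 1.22), and 7 were higher without dilated replicate 3. Their summed intensity was 32405 to 59658 in normal and 90944 to 113530 in dilated aorta. Adipoq, adiponectin, went from 3913, 1404 and 3134 to 6624, 8448 and 9693 (log2 difference 1.64, SE 0.34, adjusted p = 0.0149). Cidec, a protein of fat droplets, went from 772, 306 and 651 to 1668, 2435 and 2976 (log2 difference 1.99, SE 0.33, adjusted p = 0.00612). The groups were apart in both genes, and normal replicate 2 held the least of each. The mean log2 level of the list was 10.26, 9.42 and 9.87 in the normal and 10.86, 10.86 and 11.37 in the dilated mice, so that it moved with the group. When that mean was added to the model as a covariate, 27 genes were called in place of 1977, the median SE rose from 0.151 to 0.319, and 96.51% of the 1977 genes kept their sign. Of 275 named genes 27 changed sign with it, 9 of them called and 18 not. Among the called ones with values here were Myh11, Lrg1 and Adipoq, which is part of that mean (log2 0.13, -0.13 and -0.01), and among the others Acta2 (0.37), Srf (0.13), Hspd1 (-0.19), Ucp1 (-0.43), S100a8 (-1.63), Hp (-0.84), Hmox1 (-0.18) and Socs3 (-0.40). The part of fat in the other differences was not tested beyond this. Of 13 brown fat markers 8 were tested and 0 called, and Ucp1, the uncoupling protein of brown fat, measured 3155, 1250.5 and 1616 in normal and 3028, 3442 and 3335 in dilated aorta (log2 difference 0.8, SE 0.30, adjusted p = 0.0901), and it passed without normal replicate 1 (adjusted p = 0.0111).

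Endothelial markers were higher in 8 of 19 cases and lower in 0 (42.1%, median 0.70), but this count was 3 to 5 without any 1 normal replicate, 4 with age as a covariate and 1 in the females alone. Emcn, or endomucin, a surface sialoprotein of capillaries and veins, went from 209, 169 and 174 to 499, 1292 and 745 (log2 difference 1.84, SE 0.29, adjusted p = 0.00508). Pecam1, present on all endothelium, measured 555, 356 and 386 and 242, 402 and 275 and did not pass (log2 difference -0.44, SE 0.21, adjusted p = 0.169). The groups overlapped in Pecam1 and were apart in Emcn. Adventitial fibroblast markers were lower in 6 of 17 cases and higher in 0 (35.3%, median -0.29). Clec3b, or tetranectin, went from 462, 439.9 and 490.1 to 136, 154 and 156 (log2 difference -1.37, SE 0.12, adjusted p = 0.000555), and Tnxb, tenascin X, from 3206, 3275 and 3471 to 1085, 1116 and 1607 (log2 difference -1.37, SE 0.17, adjusted p = 0.00168). Dpt, or dermatopontin, a matrix protein of fibroblasts, fell by 0.8 (adjusted p = 0.00592). The 3 normal and the 3 dilated arrays of Clec3b each lay within a narrow range.

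Of 23 cardiomyocyte markers, 6 were tested and 2 were lower, Tcap and Hspb7. The defining markers Myh6, Myh7, Tnni3, Actc1, Myl2 and Nppa were below the filter. Of their 8 probes 5 were below background on every array, and the other 3 were above it on 1 or 2 arrays, with a highest value of 40.6. The part of heart muscle in Tcap and Hspb7 was not tested. Of 10 mesothelial markers 8 were tested and 0 called, with a summed intensity of 842 to 1894 in normal and 926 to 3275 in dilated aorta. Of 15 skeletal muscle markers 6 were tested and 1 rose, Tnni2, while Acta1, Myh1 and Ckm were below the filter. Of 14 Schwann cell and neuron markers 4 were tested and 1 rose, and of 11 B and plasma cell markers 3 were tested and 2 rose, with Ms4a1, Cd79a and Pax5 below the filter.

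The globin genes, chosen after their values were seen, differed in direction. Hba-a1, alpha globin, measured 48443, 34327 and 36741 in normal and 10530, 28984 and 42742 in dilated aorta and did not pass (log2 difference -0.74, SE 0.45, adjusted p = 0.261). Hbb-b2 was below background in every normal aorta and at 71.8, 119 and 205 in the 3 dilated aortas, at least 2.30-fold higher (adjusted p = 0.00112). Hbb-bt went from 1412, 773 and 1018 down to 167, 276 and 371 (log2 difference -1.81, SE 0.28, adjusted p = 0.00484). Hbb-b2 and Hbb-bt are adult beta globin genes, and laboratory mouse strains carry them on different haplotypes of the beta globin locus. The groups were apart in both beta globin genes, in opposite directions, and overlapped in the alpha globin gene.

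Immediate early genes, which are switched on within minutes of a stimulus, were lower. Of 19 such genes 9 were lower and 2 higher (47.4% lower, median -0.46), and 8 to 10 were lower when any 1 array was left out. Fos went from 1013, 735 and 1137 to 62.4, 87 and 207 (log2 difference -2.66, SE 0.30, adjusted p = 0.00143). Dusp1, a phosphatase that ends MAP kinase signalling, went from 14201, 10032 and 12718 to 3299, 3351 and 2099 (log2 difference -2.08, SE 0.21, adjusted p = 0.00103). Atf3 went from 283, 244 and 299 to 41.4, 65 and 41.8 (log2 difference -1.71, SE 0.14, adjusted p = 0.000478), and Zfp36, which destabilises inflammatory messenger RNAs, from 3744, 3079.8 and 3828 to 1313, 1298 and 1882 (log2 difference -1.23, SE 0.17, adjusted p = 0.00344). The groups did not overlap in these 4 genes, which were chosen among called ones, nor did they in 43.7% of all genes. Junb, also an immediate early gene, had a log2 difference of -0.05 (adjusted p = 0.938), and without dilated replicate 3 of -0.53 (adjusted p = 0.0382). Zfp36 was the member of this list that fell and held a CArG box in its promoter window (1 of the 8 lower members with a promoter). The 250 bases before its start (chr7:28379229-28379478, minus strand) are shown with the box, 58 bases before the start, in capitals.
Zfp36: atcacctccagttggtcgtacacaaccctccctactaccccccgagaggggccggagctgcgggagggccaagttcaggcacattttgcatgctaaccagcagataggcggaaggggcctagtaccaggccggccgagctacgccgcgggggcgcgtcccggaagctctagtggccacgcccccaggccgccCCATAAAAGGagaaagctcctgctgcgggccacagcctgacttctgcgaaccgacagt

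Heat shock genes fell in part, with 7 of 17 lower and 0 higher (41.2%, median -0.42). With normal replicate 1, 2 or 3 left out, that count was 2, 2 and 3 in turn, and with dilated replicate 3 left out or in the females alone it was 4. Hspa1a, the inducible HSP70, went from 1432, 1345 and 740.1 to 184, 251 and 71.2 (log2 difference -2.53, SE 0.36, adjusted p = 0.00339). Hspa1l, its neighbour in the genome and outside the list, was at 149, 115 and 110.2 in normal aorta and below background in every dilated aorta, at least 2.30-fold lower (adjusted p = 0.00115). Hspb6, a small heat shock protein of muscle, went from 14382, 16826 and 14786 to 9662, 8392 and 4955 (log2 difference -1.05, SE 0.24, adjusted p = 0.0187), and its call ended without any 1 normal replicate (adjusted p up to 0.0609). Hspd1, the mitochondrial chaperonin HSP60, measured 1257, 1136 and 1162 and 1160.3, 1483 and 1851 and did not pass (log2 difference 0.3, SE 0.17, adjusted p = 0.236). The groups overlapped in HSP60 and were apart in the other 3 genes.

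The heat shock element, searched as GAANNTTC, which reads the same on both strands, was present in 7.86% of all promoters, in 8 of the 13 tested heat shock genes with a promoter and in 4 of the 7 that fell. The share among members that fell was thus close to that among all tested members, 57.1% against 61.5%. The 250 bases before the start are shown for 2 members that fell, with the element in capitals. The element begins 104 bases before the start in Hspa1a (chr17:34972157-34972406, minus strand) and 120 bases before it in Hspb6 (chr7:30553051-30553300, plus strand).
Hspa1a: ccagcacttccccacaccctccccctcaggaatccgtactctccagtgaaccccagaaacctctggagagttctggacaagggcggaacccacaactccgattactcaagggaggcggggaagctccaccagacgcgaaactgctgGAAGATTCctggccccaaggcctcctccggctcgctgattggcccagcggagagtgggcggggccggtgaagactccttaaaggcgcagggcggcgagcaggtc
Hspb6: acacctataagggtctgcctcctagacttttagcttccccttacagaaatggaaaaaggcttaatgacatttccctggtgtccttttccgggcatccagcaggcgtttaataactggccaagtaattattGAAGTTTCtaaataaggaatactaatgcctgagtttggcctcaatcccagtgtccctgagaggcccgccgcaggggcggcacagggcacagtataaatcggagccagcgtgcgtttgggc

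In the list of the unfolded protein and integrated stress responses, 1 of 17 rose and 3 fell (median -0.11), and 0 to 1 fell without normal replicate 1 or 2 or dilated replicate 2 or 3. The member that rose was Asns, asparagine synthetase, a target of the factor ATF4, from 409.8, 225 and 427 to 742, 1085 and 1289.5 (log2 difference 1.44, SE 0.26, adjusted p = 0.00843).

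Clock genes, which cycle over the day, also differed. Of 12 tested, 5 were lower and 1 higher (41.7% lower, median -0.62), and 3 were lower without normal replicate 1 or normal replicate 3. Nr1d1, the repressor REV-ERB alpha, went from 953, 1060.4 and 998 to 458, 373 and 466 (log2 difference -1.13, SE 0.13, adjusted p = 0.00147). Ciart, a repressor of the clock, went from 669.7, 558 and 474 to 263, 247 and 155 (log2 difference -1.19, SE 0.20, adjusted p = 0.00602). Dbp, a clock output factor, went from 13141, 13563 and 13803 to 8687, 9047 and 6721 (log2 difference -0.74, SE 0.14, adjusted p = 0.0111). The groups were apart for all 3, but the calls of Nr1d1 and Dbp ended when all 8 arrays were fitted. Bhlhe40, another repressor of the clock, rose from 998, 728 and 1082 to 1622, 1732 and 1769.5 (log2 difference 0.85, SE 0.16, adjusted p = 0.00977). The time of day at which the aortas were taken is not given in the sources used here, and its part was not tested.

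Among genes of lipid handling, 5 of 12 were higher and 0 lower (41.7%, median 0.65), and 3 were higher without dilated replicate 3. Apoe, the apolipoprotein through which macrophages release cholesterol, went from 838, 954 and 642 to 3834, 5218 and 5218 (log2 difference 2.48, SE 0.19, adjusted p = 0.000371). Pltp, a phospholipid transfer protein, went from 505, 518 and 504 to 1570.1, 1173 and 1742 (log2 difference 1.45, SE 0.16, adjusted p = 0.00128), and Plin2, the coat of lipid droplets, from 57, 68 and 59.2 to 179, 195 and 248 (log2 difference 1.2, SE 0.14, adjusted p = 0.0015). For all 3 genes the normal and dilated ranges were far apart. Of 20 genes of iron and redox metabolism 6 rose and 0 fell (30%, median 0.23), a count of 6 or 7 whichever array was left out. Slc40a1, ferroportin, the iron exporter, went from 302, 163 and 412 to 1308, 2612 and 1234 (log2 difference 2.35, SE 0.35, adjusted p = 0.00396). Cp, ceruloplasmin, which oxidises the exported iron, went from 334, 403 and 369.8 to 1189.8, 1482 and 971 (log2 difference 1.58, SE 0.17, adjusted p = 0.00115). Hamp2, a hepcidin gene, was below background in every normal aorta and at 155, 108 and 268 in the 3 dilated aortas, at least 2.88-fold higher (adjusted p = 0.00132).

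Of 15 genes of fatty acid oxidation 4 rose and 0 fell (median 0.64), and 1 to 2 rose without any 1 normal replicate, dilated replicate 2 or dilated replicate 3, 1 in the females alone and 7 with age as a covariate. Of 15 glycolysis genes 5 rose and 1 fell (median 0.21), and 3 rose without normal replicate 1. Aldoa, muscle aldolase, went from 4486, 4199.6 and 3610.3 to 6480.5, 6994 and 7904 (log2 difference 0.79, SE 0.14, adjusted p = 0.00739). Of 24 genes of oxidative phosphorylation 1 rose and 0 fell (median 0.27). The count was 4 without dilated replicate 1, 0 without normal replicate 2, normal replicate 3, dilated replicate 2 or dilated replicate 3, and 3 with age as a covariate.

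Some genes were measurable in only 1 of the groups. In all, 117 called genes were below background on the 3 normal arrays and above it on the 3 dilated arrays, and 35 showed the reverse. Ddah1, which degrades an inhibitor of nitric oxide synthesis, was at 317, 531 and 552 in the dilated aortas, at least 6.68-fold higher (adjusted p = 0.000371). Clec4d, a lectin receptor of myeloid cells, was at 244, 358 and 710.3, at least 5.96-fold higher (adjusted p = 0.000955). Slc15a3, a peptide transporter of phagocyte lysosomes, was at 217, 257 and 530.5, at least 4.79-fold higher (adjusted p = 0.00128). Tlr13, a receptor for bacterial ribosomal RNA, and Cd83, a marker of mature dendritic cells, were at least 2.66-fold and 2.65-fold higher (adjusted p = 0.0015 and 0.000626). Rerg, a small GTPase gene, was at least 3.08-fold higher (adjusted p = 0.000413). In the other direction Ngef, a guanine nucleotide exchange factor, was at 150.1, 117 and 91.8 in normal aorta and at least 2.22-fold lower in dilated aorta (adjusted p = 0.00165), and Fosb at least 2.00-fold lower (adjusted p = 0.0153).

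2 further genes with large rises from a dim normal level belong to no list and were chosen after their values were seen. Gpr176, an orphan receptor, was at -2.37, 13.4 and 39.2 in normal and 1005, 854 and 609 in dilated aorta (adjusted p = 0.000371). Reln, or reelin, a secreted glycoprotein best known from the brain and also made by lymphatic endothelium, was at 5.57, 77.6 and 17.9 and 769, 622 and 422 (adjusted p = 0.00114). In both genes some normal arrays were below background, so the size of the rise depends on the offset.

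In some genes the 3 dilated mice were not alike. Of 6126 genes above background on all arrays with an SD under 0.3 (log2) among normal mice, 19 had an SD of at least 1 among dilated mice, and dilated replicate 3 was the array apart in 15 of them. This filter favours a wider spread among dilated mice, and the reverse count was not made. Over all genes the median SD (log2) was 0.1603 in normal and 0.1681 in dilated mice. Il33, an alarm cytokine of stromal cells, was at 808, 699 and 849.8 in normal aorta and at 292, 334 and 2097 in dilated aorta. Hmox1, heme oxygenase 1, was at 57.5, 57.5 and 79.96 and 106, 250.4 and 1252. Socs3, an inhibitor of cytokine signalling that interleukin 6 induces, was at 123, 171 and 109 and 199, 205 and 1765. In Il33 dilated replicates 1 and 2 were below the normal range and replicate 3 was above it, while Hmox1 and Socs3 were above the normal range in all 3 dilated mice and by far the highest in replicate 3. None of the 3 genes was called (adjusted p = 0.709, 0.085 and 0.169). With age as a covariate Hmox1 and Socs3 passed (adjusted p = 0.0241 and 0.0106), Hmox1 also did without dilated replicate 1 (0.0192), and Il33 was called lower without dilated replicate 3 (log2 -1.20, adjusted p = 0.0021). Timp1, an inhibitor of metalloproteinases, was at 1766, 1425 and 2122 and 4529, 4941 and 26860 (log2 difference 2.24, SE 0.60, adjusted p = 0.034), a call that ended without any 1 normal replicate (adjusted p up to 0.0952) and with an offset of 16 or with values floored at 16 in place of the offset. Hp, haptoglobin, an acute phase protein that binds free hemoglobin, was at 4098, 2667 and 2965 and 6884, 5705 and 48443 and did not pass (log2 difference 1.94, SE 0.71, adjusted p = 0.0863), except with age as a covariate (adjusted p = 0.003), without dilated replicate 3 (0.0185) or in the females alone (0.0352). Lrg1, a secreted glycoprotein induced in inflammation, was at 802, 572 and 582 and 1590.5, 1924 and 10861 (log2 difference 2.24, SE 0.63, adjusted p = 0.0387), and its call ended without any 1 normal replicate (adjusted p up to 0.118) and with an offset of 16 or with values floored at 16 in place of the offset. The same mouse held the highest neutrophil marker sum and the highest white adipocyte level, and the part of either was not tested.

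**Figure D5:**
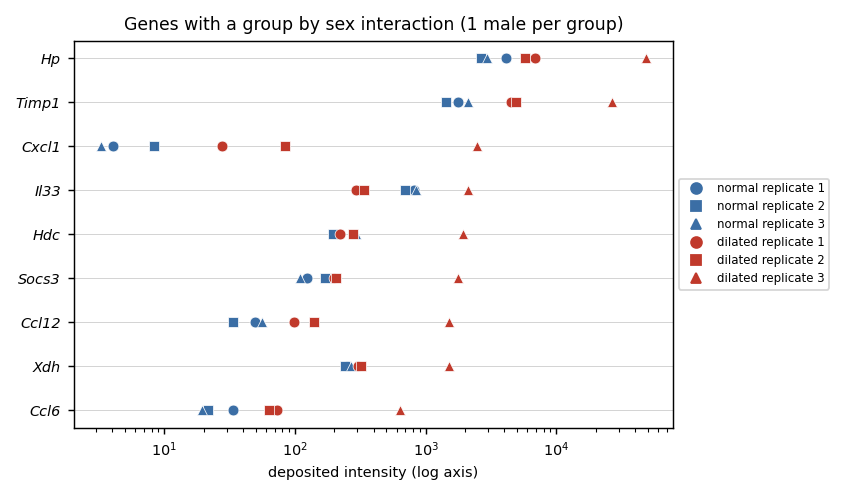
Deposited intensity (log axis) in each mouse of 9 genes whose difference between dilated and normal aorta depended on sex in the fit, with 1 male in each group. Dilated replicate 3, the only male with dilatation, lies above every other mouse in all 9 genes, and Il33 is below the normal mice in the other dilated mice.

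In 3 genes, 2 probes passed the threshold in opposite directions. For Ptpre, a tyrosine phosphatase, a bright probe fell by 0.78 and a dim probe rose by 1.66, for H13, signal peptide peptidase, the log2 differences were -0.82 and 0.69, and for Il15, interleukin 15, they were 0.48 and -0.49. No direction is given for these genes. Of 1919 genes with more than 1 kept probe these were the only such cases, and 92.08% of the 543 further probes of called genes had the sign of the probe used.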

How the data were processed

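RNA of the ascending aorta was measured on Illumina mouse arrays, 1 mouse per array. Per the submitters' processing notes GenomeStudio and Partek were used, with settings that the labels used here do not state. The deposited values are linear intensities that, from the values, were background-subtracted and brought to a common distribution by the authors, with 27.8% to 28.0% of probes below 0 on each array. Depth has no meaning for arrays, and their number, 3 per group, limits the precision. A further deposited table with 16 columns that match no single sample was not used.

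Probes were kept if they exceeded 25.6 on 3 or more of the 6 arrays (11810 of 25697), with the probe of highest mean for each gene. Of all probes, 23141 had 1 gene symbol, 0 several and 2556 none. Among the 9280 genes tested 986 were unnamed probes. The values were tested as log2(intensity + 50) with limma 3.58.1 (R 4.3.3) and Benjamini-Hochberg adjustment, without covariates, so p-values measure the spread between these mice. An exact permutation test of 3 against 3 cannot go below p = 0.1 and was not used. On simulated data with 200 changed genes, 74% of log2 changes of 1 and 98% of log2 changes of 2 were recovered.

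For a gene below background on all arrays of a group, an "at least" fold sets the bright group's mean log2 value against the background bound of the dim group, both with the offset. Named genes were the 12 largest rises and falls measured on all arrays, 8 genes above background in 1 group only in each direction, up to 4 members of each list with the smallest p plus those against the list's direction, 8 genes with the widest spread among dilated mice, and genes with opposite probes. The 12 rises and 12 falls were taken only from called genes whose groups do not overlap. Chosen after their values were seen were Acta2, Adgre1, Adipoq, Cx3cl1, Cxcl12, Eln, Fcgr2b, Gpr176, Gucy1a1, Gucy1b1, Hba-a1, Hbb-bt, Hp, Hspd1, Igfbp3, Junb, Lamp1, Lgmn, Lmod1, Mmp12, Mrc1, Myh11, Mylk, Ogn, Omd, Pde5a, Pecam1, Prkg1, Reln, S100a8, Srf, Tagln, Timp1, Ucp1 and Zfp36. The members and the gene lists were chosen with earlier results of these data known. Promoters are from RefSeq (GRCm38.p6). In all, 21 alternatives were planned.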

Additional observations from a re-analysis of the deposited data

Results flagged for a closer look

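The difference between dilated and normal aorta depended on sex for 9 genes by the interaction of group and sex (limma adjusted p 0.0445 to 0.046, with 2 residual degrees of freedom and 1591 genes at an unadjusted p under 0.05). These were Timp1, Hp, Socs3, Ccl12, Hdc, Il33, Cxcl1, Xdh and Ccl6. Il33 had a log2 difference of -1.28 in females and 1.52 in males. For Cxcl1, a chemokine for neutrophils, the differences were 0.93 and 5.44, and for Ccl12, a chemokine for monocytes, 0.70 and 4.23. The only dilated male is dilated replicate 3, so sex and that mouse cannot be told apart.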

How the results depend on the processing

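The 1977 calls became 3188 with array quality weights (weights from 0.3735 for dilated replicate 3 to 2.844 for normal replicate 1) and 27 with the white adipocyte mean as a covariate, which differs between the groups without overlap. Leaving out 1 array at a time gave 962 to 1789 calls, with fewer samples in each fit. The other alternatives gave 1694 to 2090 calls, except 1512 with the replicate number as a block and 1457 in the females alone, which was chosen after seeing the data. Same-numbered arrays showed no shared deviation from their group means (r of -0.217, 0.0381 and -0.0316), and differently numbered arrays gave r of -0.11 to 0.182. With 3 arrays per group these values cannot settle whether the numbers pair the mice. Of 246 named calls, 155 were kept under every alternative but the adipocyte covariate. Where a gene list had 1 or 2 members called in a direction, leaving out 1 array changed that count in 30 of 36 cases.

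With that covariate the log2 difference changed sign for 27 of 275 named genes, 18 of which were not called. The 9 called ones were Acadm (-0.222), Adipoq (-0.00559), Angptl4 (-0.055), Bmpr1a (0.172), Col4a5 (0.0653), Lpl (-0.0619), Lrg1 (-0.134), Myh11 (0.127) and Sdhb (-0.0945), and the cause was not tested. With the mean of all kept probes it did so for H13 (0.0304) and Ptpre (0.439), whose probes run in opposite directions. Dim genes are limited by signal over background, and their log2 differences depend on the offset.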

Other observations

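In the 2 MPS VII aortas that were not dilated, which entered no comparison, Hbb-b2 measured 581 and 220 and Hbb-bt 1065 and 348. In the other mice Hbb-b2 was below background in the 3 normal aortas and above it in the 3 dilated ones.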
